A study of Mus musculus with 4 samples.

Results

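The genes described here are 39 mouse genes of the actin cytoskeleton and of its transcriptional readers, serum response factor (SRF) and YAP, out of 37991 genes with a row in the deposited count table. They were chosen by name: actins, proteins that cross-link, move, bind or turn over actin filaments, the regulators SRF, MRTF, YAP, TAZ and TEAD, known SRF and YAP targets, vimentin and annexins. These genes and the related lists below were chosen with earlier results of these data known. Their shares set beside all tested genes are therefore descriptions and not tests. All 39 were found by Ensembl identifier, 4 of them under newer symbols in the reference: Mkl1 (Mrtfa), Mkl2 (Mrtfb), Ctgf (Ccn2) and Cyr61 (Ccn1). RNA was sequenced from mouse embryonic stem cells of the ZHBTc4 strain label in 2 groups of 2 libraries, wild type (wt) and B-type lamin null (dKO, both B-type lamin genes disrupted). ZHBTc4 is known as a line whose Pou5f1 (Oct4) comes from a tetracycline-repressible transgene. Both groups carry this label, and no drug, age, substrate or culture medium is given in the sources used here. The labels do not say whether a genotype is more than 1 clone or line, so the genotype and a difference between lines cannot be told apart.

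Actin monomers and filaments set the activity of both readers. SRF binds the CArG box with its coactivators of the MRTF family, which globular actin holds in the cytoplasm, so that filament assembly releases MRTF to the nucleus. YAP and its paralog TAZ (Wwtr1) bind DNA through TEAD proteins and enter the nucleus when cells spread and pull on their surroundings. The nuclear lamina is joined to actin through the SUN and nesprin proteins, and lamins are therefore often discussed together with both readers.

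Library totals ran from 12899964 to 16697970 counts. Lmnb1 was low in dKO cells, with 69 and 101 counts against 8538 and 8321 in wt cells, and Lmnb2 had 41 and 55 against 1343 and 1787, so both targets went with the labels. Stem cell markers were abundant in all 4 libraries. Their 8 genes summed to 5147 and 5146 CPM (counts scaled to library size with TMM factors) in wt and to 5795 and 6109 CPM in dKO libraries. Among them Zfp42 had 666 and 613 CPM in wt and 1449 and 1435 CPM in dKO libraries (edgeR adjusted p = 0.0886), and none of the 8 was called. Fibroblast markers were low, with 12 genes summing to between 14.0 and 22.4 CPM. None of these lists had a member at 0 in all 4 libraries. The replicates are named biological, but separate cultures are not stated, and p-values measure the spread between these libraries. In such bulk RNA, fewer cells of a type and less RNA per cell cannot be told apart.

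No gene of the actin, SRF and YAP set was called different between the genotypes in a fit with genotype as the only term. Most values leaned slightly toward lower expression in dKO cells, and several YAP targets and Acta2 spread widely between replicates. Of the 39 genes 38 passed the filter on low counts. At an adjusted p under 0.05, edgeR's quasi-likelihood F test of dKO against wt called none of the 38, and 12 of all 14027 tested genes (0.0855%; 0.0356% higher and 0.0499% lower). DESeq2 without the filter, DESeq2 on the filtered genes and limma-voom also called 0 of them, against 0.403, 0.684 and 0.0356% of the genes they tested. An unadjusted p under 0.05 was found for 5 genes, Anxa1, Tpm4, Cnn2, Tagln2 and Tagln. All were lower in dKO cells (13.2% of 38, against 2.71% of tested genes lower and 2.87% higher at this p). Without dKO replicate 1 the log2 fold change went from -0.54 to -0.32 for Tagln and from -0.38 to -0.30 for Tagln2. It went from -0.41 to -0.37 for Tpm4, from -0.74 to -0.72 for Anxa1 and from -0.45 to -0.58 for Cnn2. The dKO and wt libraries did not overlap for 12 genes that were lower (31.6%, against 16.4% of tested genes), and for 1 that was higher, Wwtr1 (17.2% of tested genes were higher in this way). The median log2 fold change was -0.11 over the 38 genes and -0.002 over all tested genes. It moved to -0.06 without wt replicate 2 and to -0.07 without dKO replicate 1. Of the 38 genes 28 had a negative value, against 50.3% of tested genes. The 95% interval lay within 1 log2 unit of 0 for 31 of the 38 (65.5% of tested genes). Summed over the 39 genes, CPM was 9850 and 10003 (wt) against 9539 and 9593 (dKO), close to 1% of all counts.

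**Figure D1:**
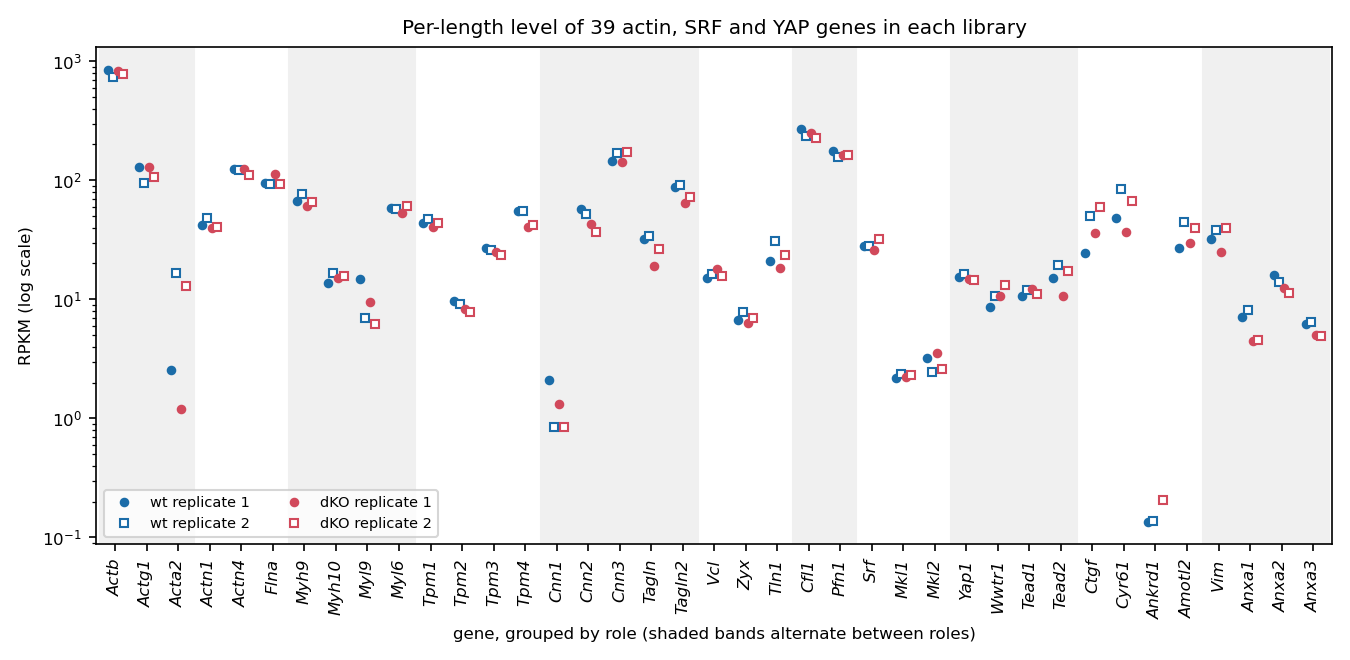
Level per length (RPKM, CPM per kilobase of annotated exon, log scale) of each gene in each library, with genes grouped by role. wt is blue, dKO is red, filled circles are replicates 1 and open squares replicates 2; Ankrd1 in dKO replicate 1 had 0 counts and is not drawn. The genotypes lie on each other for most genes, while Acta2 is split by replicate in both.

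Actin itself did not differ detectably. Actb, the major cytoplasmic actin, had 2281 and 1976 CPM in wt and 2218 and 2113 CPM in dKO libraries, a log2 fold change of 0.02 with a 95% interval of -0.31 to 0.36. Its level per length, 794 RPKM in wt and 808 in dKO cells, was above that of 99.8% of tested genes. Actg1, the other cytoplasmic actin, had 344 and 254 CPM in wt and 345 and 284 CPM in dKO libraries (log2 fold change 0.07). Its counts are uncertain, since 56.7% of the 50-base windows of its longest transcript also occur in transcripts of other genes, most of them in the copy Gm12715. The corresponding share was 14.2% for Actb and 0.35% for Acta2.

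Acta2 (chromosome 19, 34315580 to 34329826 in the table, whose build is not given), the actin of smooth muscle and myofibroblasts, was the exception among the actins. The first libraries held 72 counts (wt) and 43 counts (dKO), and the second 560 (wt) and 472 (dKO). In CPM these were 5.63 and 2.64, and 36.8 and 28.2. Both second libraries were thus high and both first libraries low, and the genotypes overlapped. The log2 difference between the replicates was 2.61 in wt and 3.19 in dKO cells, computed on CPM with 0.5 added. Ranked by the smaller of the 2 gaps where both had the same sign, this was the second largest of all 14027 tested genes. The difference between genotypes had a log2 value of -0.47 (edgeR adjusted p = 0.994, 95% interval -3.37 to 2.43). It ran from -3.00 without dKO replicate 2 to 1.45 without wt replicate 2, a range that holds the gap between replicates. The summed trophectoderm markers had the same order of libraries: a list of 7 (Cdx2, Eomes, Elf5, Krt8, Krt18, Krt7, Gata3) summed to 276 and 571 CPM in wt and 158 and 416 CPM in dKO libraries, carried by Krt8 and Krt18. Cdx2 did not share that order, with 1.33 and 1.05 CPM in wt and 1.23 and 0.89 CPM in dKO libraries, and Elf5 had 5 counts or fewer. A higher second library in each genotype was not particular to this list. Endothelium markers summed to 130 and 186 CPM in wt and 138 and 217 CPM in dKO libraries. Primitive endoderm markers summed to 272 and 365, and 330 and 370 CPM, and the fibroblast sum rose too. The stem cell sum was higher in the second library of dKO cells only. Of 6 smooth muscle markers Des, Lmod1, Myh11 and Actg2 were higher in the second library of both genotypes, as Acta2 was. Des, a muscle intermediate filament, had 14.9 and 23.5 CPM in wt and 13.3 and 21.7 CPM in dKO libraries, while Myh11 and Actg2 had 16 and 5 counts at most. Smtn, the most abundant of the 6, was lower in both second libraries, with 46.7 and 35.2 CPM in wt and 43.9 and 33.4 CPM in dKO libraries. The 6 together summed to 63.2 and 62.1 CPM in wt and 58.5 and 57.2 CPM in dKO libraries. The part of another cell state in the Acta2 values was not tested.

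Cross-linking proteins, which bundle filaments or tie them into networks, showed no difference beyond the spread of the libraries in the test. Filamin A (Flna) had 901 and 870.2 CPM in wt and 1069 and 871 CPM in dKO libraries, where dKO replicate 1 alone stood above the rest (log2 fold change 0.13, 95% interval -0.23 to 0.49). Actn4 averaged 754 ± 7.80 CPM over the wt and 726 ± 58.8 CPM over the dKO libraries (SD, n = 2 each). Actn1, the other non-muscle alpha-actinin, had 231 and 265 CPM in wt and 220.3 and 222 CPM in dKO libraries, both dKO values just under the lower wt value (log2 fold change -0.16, edgeR unadjusted p = 0.232).

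Among the listed heavy chain genes of non-muscle myosin II, the motor that contracts these filaments, Myh9 had the higher RNA level. Myh9 had 865 and 999 CPM in wt and 788 and 846 CPM in dKO libraries, with no overlap and a log2 fold change of -0.19 (95% interval -0.52 to 0.14). Myh10, which encodes the IIB heavy chain, averaged 158 ± 22.6 CPM over the wt and 161 ± 2.46 CPM over the dKO libraries (SD, n = 2 each). The essential light chain Myl6 differed by -0.03 on the log2 scale. Myl9, the regulatory light chain typical of smooth muscle and an SRF target, was low, with 219 and 124 wt counts and 178 and 120 dKO counts. Here the first libraries were the higher ones in both genotypes, the opposite of Acta2.

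Tropomyosins, which lie along the filament and gate access of myosin and cofilin, all had negative log2 fold changes (50.3% of tested genes did), and none was called. Tpm4 (chromosome 8, 74658874 to 74677041) had 121 CPM in each wt library and 88.7 and 93.2 CPM in the dKO libraries. The genotypes were well apart, and each pair of replicates was close. The log2 fold change was -0.41 (SE 0.11, 95% interval -0.69 to -0.13, edgeR unadjusted p = 0.0113, adjusted p = 0.712), and it stayed between -0.44 and -0.37 with 1 library left out. Part of its sequence, 12.1% of windows, is shared with Gm7809. Tpm2, the isoform gene of smooth and skeletal muscle, and Tpm3 were also without overlap, with log2 fold changes of -0.23 and -0.11. Tpm1 had -0.10 and overlapped between genotypes.

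Calponins and transgelins are related proteins that bind and steady filaments, and Cnn1 and Tagln are classical SRF targets of smooth muscle. Of the 5 genes, 3 were lower at an unadjusted p under 0.05 (2.71% of all tested genes were) and none was called. Tagln (SM22, chromosome 9, 45737711 to 45744141) had 63.8 and 67.8 CPM in wt and 37.7 and 52.7 CPM in dKO libraries, with dKO replicate 1 lowest by far. Its log2 fold change was -0.54 (SE 0.19, edgeR unadjusted p = 0.029, adjusted p = 0.80), and -0.32 without dKO replicate 1. Tagln overlaps Pcsk7 in the table, which had 284 and 321 wt counts and 408 and 329 dKO counts. Tagln2 (chromosome 1, 174430178 to 174437511), the form of non-muscle cells, had 183 and 190.3 CPM in wt and 135 and 151 CPM in dKO libraries. All its dKO values lay under all wt values (log2 fold change -0.38, SE 0.12, edgeR unadjusted p = 0.019, adjusted p = 0.723). Cnn2 (chromosome 10, 79451329 to 79458807), a calponin of non-muscle cells, had 142 and 127 CPM in wt and 107 and 90.0 CPM in dKO libraries (log2 fold change -0.45, SE 0.14, edgeR unadjusted p = 0.0187, adjusted p = 0.723). Its genotypes too were separate. Cnn3, the most abundant calponin, did not share this: it had 444 and 511 CPM in wt and 429 and 522 CPM in dKO libraries (-0.01). Cnn1 had only 73 and 35 wt counts and 59 and 39 dKO counts.

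**Figure D2:**
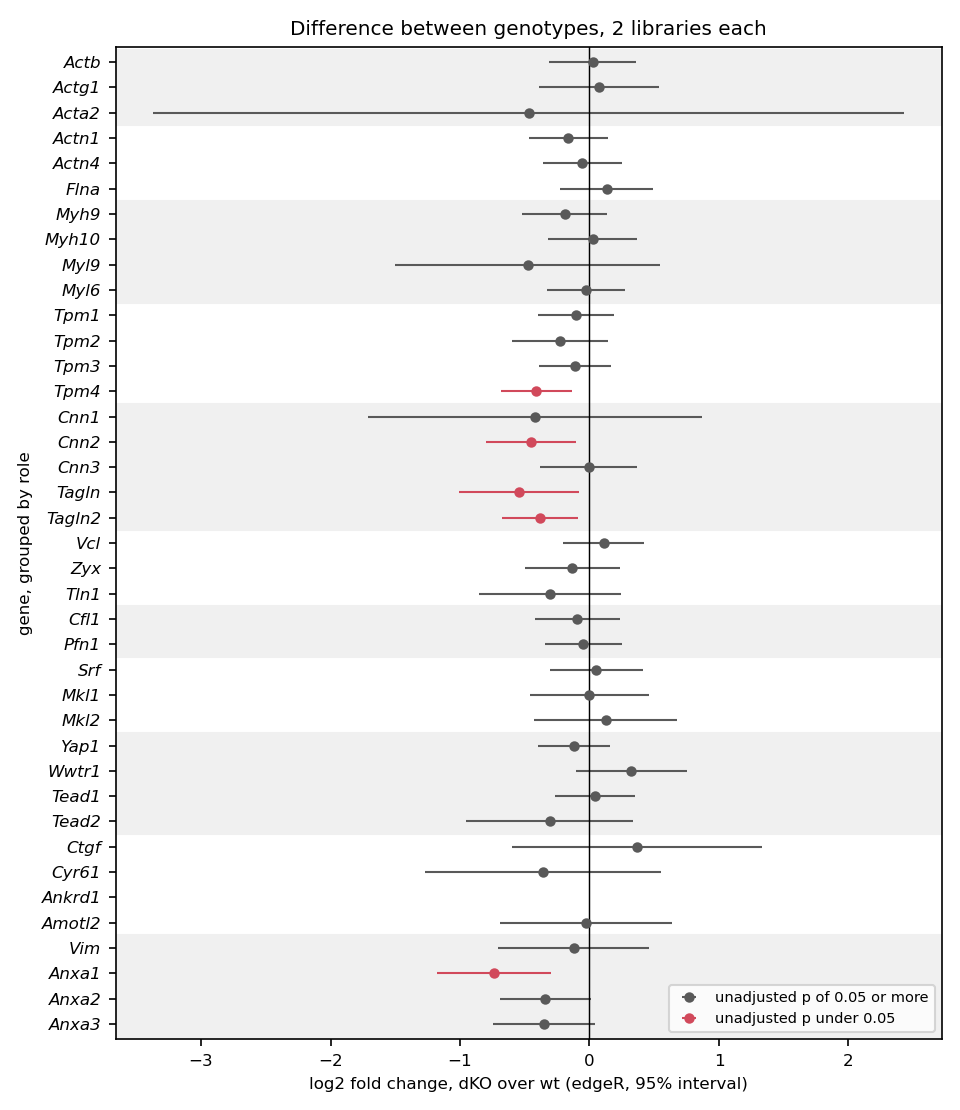
log2 fold change of dKO over wt for the 38 tested genes, with 95% intervals from edgeR's fit to 2 libraries per genotype; red marks an unadjusted p under 0.05. The 5 red genes, Tpm4, Cnn2, Tagln, Tagln2 and Anxa1, lie left of 0, and the interval of Acta2 is the widest, from -3.37 to 2.43; Ankrd1 was not tested.

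Genes of focal adhesions, where filaments meet integrins, showed no separation. Vinculin (Vcl) had 123 and 133 CPM in wt and 146 and 129 CPM in dKO libraries (log2 fold change 0.11). Zyxin (Zyx), a LIM protein that moves to strained filaments, had -0.13. Talin 1 (Tln1), which links integrins to actin, had 207 and 304 CPM in wt and 181 and 232 CPM in dKO libraries, a log2 fold change of -0.31 that was within the spread of its replicates. Vcl overlaps Ap3m1, Zyx overlaps Epha1 and Tln1 overlaps Creb3 in the table, so their counts could be affected if strand was not used. Actin turnover genes overlapped between genotypes: cofilin (Cfl1), which severs filaments, averaged 724 ± 70.1 CPM over the wt and 678 ± 39.6 CPM over the dKO libraries, and profilin (Pfn1), which feeds monomers to growing ends, averaged 404 ± 32.8 and 391 ± 2.92 CPM (SD, n = 2 each).

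Vimentin and the annexins are not part of actin filaments and were included beside them. Anxa1 (chromosome 19, 20447918 to 20465434), a calcium-dependent membrane binder, had the most negative log2 fold change of the 38 genes. It had 20.5 and 23.7 CPM in wt and 13.1 and 13.4 CPM in dKO libraries. Both genotypes were tight and far apart, with a log2 fold change of -0.74 (SE 0.18, 95% interval -1.18 to -0.30, edgeR unadjusted p = 0.00649, adjusted p = 0.582). It stayed between -0.84 and -0.63 with 1 library left out. Anxa2, which pairs with S100a10 at the membrane and binds actin, had 60.1 and 52.1 CPM in wt and 46.5 and 42.1 CPM in dKO libraries (log2 fold change -0.34, edgeR unadjusted p = 0.0548). Anxa3 had 22.6 and 23.3 CPM in wt and 18.2 and 17.8 CPM in dKO libraries (-0.35, edgeR unadjusted p = 0.0696). All 3 annexins were thus lower in both dKO libraries than in both wt libraries, as were 16.4% of tested genes. Vim, the intermediate filament gene of mesenchymal cells, had 153 and 182 CPM in wt and 119 and 189 CPM in dKO libraries, with dKO replicate 1 low and dKO replicate 2 high. Fibroblast markers were also lower in sum in both dKO libraries, at 16.8 and 22.4 CPM in wt and 14.0 and 14.9 CPM in dKO libraries. Only 7 of these 12 genes passed the filter on low counts. Twist1 went the other way, with 2.27 and 1.71 CPM in wt and 4.11 and 2.62 CPM in dKO libraries. The part of fibroblast markers in the annexin values was not tested.

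The transcripts of SRF and its MRTF coactivators did not differ detectably between genotypes. SRF activity was not measured. Srf had 81.1 and 81.8 CPM in wt and 75.5 and 93.4 CPM in dKO libraries, the dKO pair lying on either side of the wt pair (log2 fold change 0.05, 95% interval -0.31 to 0.41). Mkl1 (MRTF-A) had 13.3 and 14.5 CPM in wt and 13.6 and 14.2 CPM in dKO libraries, a log2 fold change of 0 to 2 decimals with a 95% interval of -0.46 to 0.46. This gene overlaps Sgsm3 in the table, which had more counts than Mkl1. Mkl2 (MRTF-B) had 28.8 and 22.0 CPM in wt and 31.9 and 23.5 CPM in dKO libraries (0.13).

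Among the YAP regulators, TAZ had the only transcript of the 4 that was higher in both dKO libraries than in both wt libraries. Wwtr1 (TAZ, chromosome 3, 57259571 to 57379832) had 41.4 and 50.6 CPM in wt and 51.4 and 63.6 CPM in dKO libraries. The lower dKO value lay barely above the higher wt value, and the log2 fold change was 0.32 (SE 0.17, 95% interval -0.11 to 0.75, edgeR adjusted p = 0.942). Yap1 had 142 and 151 CPM in wt and 136 and 133 CPM in dKO libraries (-0.12, edgeR adjusted p = 0.981). Per length, Yap1 was 62.3% ± 2.34 of the sum of Yap1 and Wwtr1 in wt and 54.9% ± 4.11 in dKO cells (SD, n = 2 each). By library this share was 64.0 and 60.7% (wt) and 57.8 and 52.0% (dKO), without overlap. The difference of -7.42 percentage points was -4.51 without dKO replicate 2. The log2 fold change of Wwtr1 became 0.18 when wt replicate 1 was left out and 0.17 when dKO replicate 2 was. These shares were not tested. Tead1 averaged 153 ± 12.3 CPM over the wt and 158 ± 10.7 CPM over the dKO libraries (SD, n = 2 each). Tead2 had 72.0 and 93.2 CPM in wt and 50.9 and 82.6 CPM in dKO libraries, with the second library higher in each genotype. Tead2 overlaps Cd37 in the table, whose counts (wt 305 and 521, dKO 258 and 501) had the same order of libraries.

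YAP targets, the usual readout of YAP activity, varied more between replicates than between genotypes. Ctgf (chromosome 10, 24315248 to 24318489), a matricellular protein and also an SRF target, had 70.0 and 143 CPM in wt and 104 and 172 CPM in dKO libraries. Cyr61 (chromosome 3, 145309935 to 145312949), its close relative, had 96.6 and 171 CPM in wt and 74.2 and 135 CPM in dKO libraries. Ctgf was thus higher and Cyr61 lower in dKO cells within each pair of same-numbered libraries, but both genes overlapped between genotypes. The log2 fold change was 0.37 (95% interval -0.60 to 1.34) for Ctgf and -0.36 (-1.27 to 0.56) for Cyr61, with an edgeR adjusted p of 0.981 for each. With single libraries left out, Ctgf moved to -0.06 without wt replicate 1 and to -0.04 without dKO replicate 2. Cyr61 moved to 0.11 without wt replicate 2 and to 0.01 without dKO replicate 1. Such fits set the replicate numbers against each other unevenly. The gap between replicates, which had the same sign in both genotypes, then enters the value, so these fits cannot decide the direction. A fit with a replicate block gave 0.41 for Ctgf and -0.36 for Cyr61 and called both, as it did 9.26% of tested genes. The labels do not state that same-numbered libraries were paired. Amotl2, a YAP-binding scaffold and feedback target, had 169 and 278 CPM in wt and 189 and 251 CPM in dKO libraries (-0.03). In all 3 genes the second library was the higher one in both genotypes. Ankrd1, a YAP target of muscle and endothelium, had 5 and 6 wt counts and 0 and 10 dKO counts and was not tested. A count of 0 there allows up to 3 counts, so no difference was detectable at this depth.

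**Figure D3:**
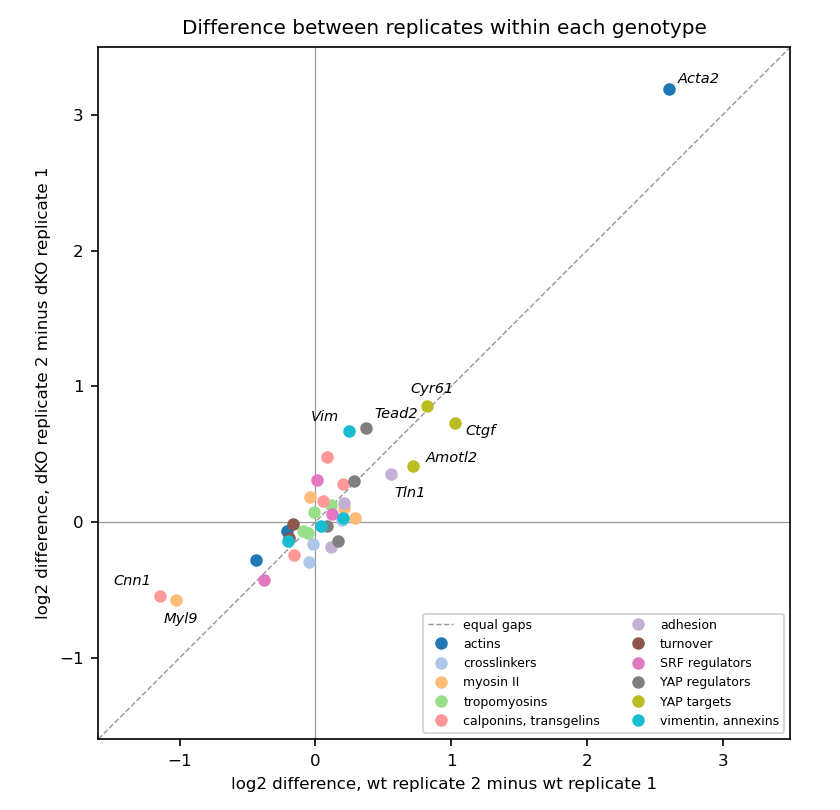
log2 difference between replicate 2 and replicate 1 in wt (horizontal) and dKO cells (vertical), from CPM with 0.5 added, for the 38 tested genes coloured by role. Acta2 lies alone at 2.61 and 3.19; Ctgf, Cyr61 and Amotl2 lie up and to the right, and Cnn1 and Myl9 down and to the left.

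Gaps between replicates had the same sign in both genotypes for 32 of the 38 genes (84.2%), against 72.3% of tested genes. A gap of over 1 log2 unit with the same sign in both genotypes was seen in 1 of the 38 genes, Acta2, and in 2.08% of tested genes. Replicate 2 was above replicate 1 in both genotypes for Ctgf (log2 differences 1.03 in wt and 0.73 in dKO cells), Cyr61 (0.82 and 0.86), Amotl2 (0.72 and 0.41), Tln1 (0.55 and 0.35), Tead2 (0.37 and 0.69) and Vim (0.25 and 0.67). It was below for Cnn1 (-1.15 and -0.54) and Myl9 (-1.03 and -0.58). Smooth muscle type genes therefore did not vary as a block, since Acta2 went one way and Cnn1 and Myl9 the other. The labels do not say what a replicate number marks.

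Paralog shares, computed per exon length, were without overlap between genotypes for a gene in 5 of 10 families: the myosin heavy chains, tropomyosins, calponins, YAP with TAZ, and annexins. For scale, the CPM of 33.6% of all tested genes did not overlap between genotypes, in either direction. A family was counted if any of its genes was apart, so the count of families is not read as a result. In the TEAD pair, Tead1 took 41.5 and 38.0% (wt) and 53.5 and 39.2% (dKO), which overlapped. Actb made up 86.7% ± 0.16 of the 3 actins in wt and 86.6% ± 0.35 in dKO cells. Acta2 took 1.97 and 1.41% in the second wt and dKO libraries and 0.26 and 0.13% in the first. Myh9 made up 82.7% ± 0.60 of the 2 myosin heavy chains in wt and 80.4% ± 0.55 in dKO cells, with libraries that did not overlap. Tpm4 was 40.4% ± 0.51 of the 4 tropomyosins in wt and 35.6% ± 0.41 in dKO cells, and Tpm1 33.3% ± 1.57 and 36.3% ± 1.33. Tpm4 was thus above Tpm1 in both wt libraries, while in the dKO libraries Tpm4 took 35.4 and 35.9% and Tpm1 35.4 and 37.2%. This order holds by exon length alone: with the longest transcript as length, Tpm1 led in all 4 libraries, with 41.2 and 43.8% (wt) and 43.6 and 46.1% (dKO), and Tpm4 had 24.1 and 23.6% (wt) and 20.1 and 20.5% (dKO). Cnn2 was 25.7% ± 3.26 of the calponins in wt and 20.4% ± 4.11 in dKO cells, with libraries that barely missed each other (23.4 and 23.3%). Anxa1 was 26.3% ± 3.23 of the 3 annexins in wt and 21.3% ± 1.17 in dKO cells. All errors here are SD over n = 2 libraries.

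**Figure D4:**
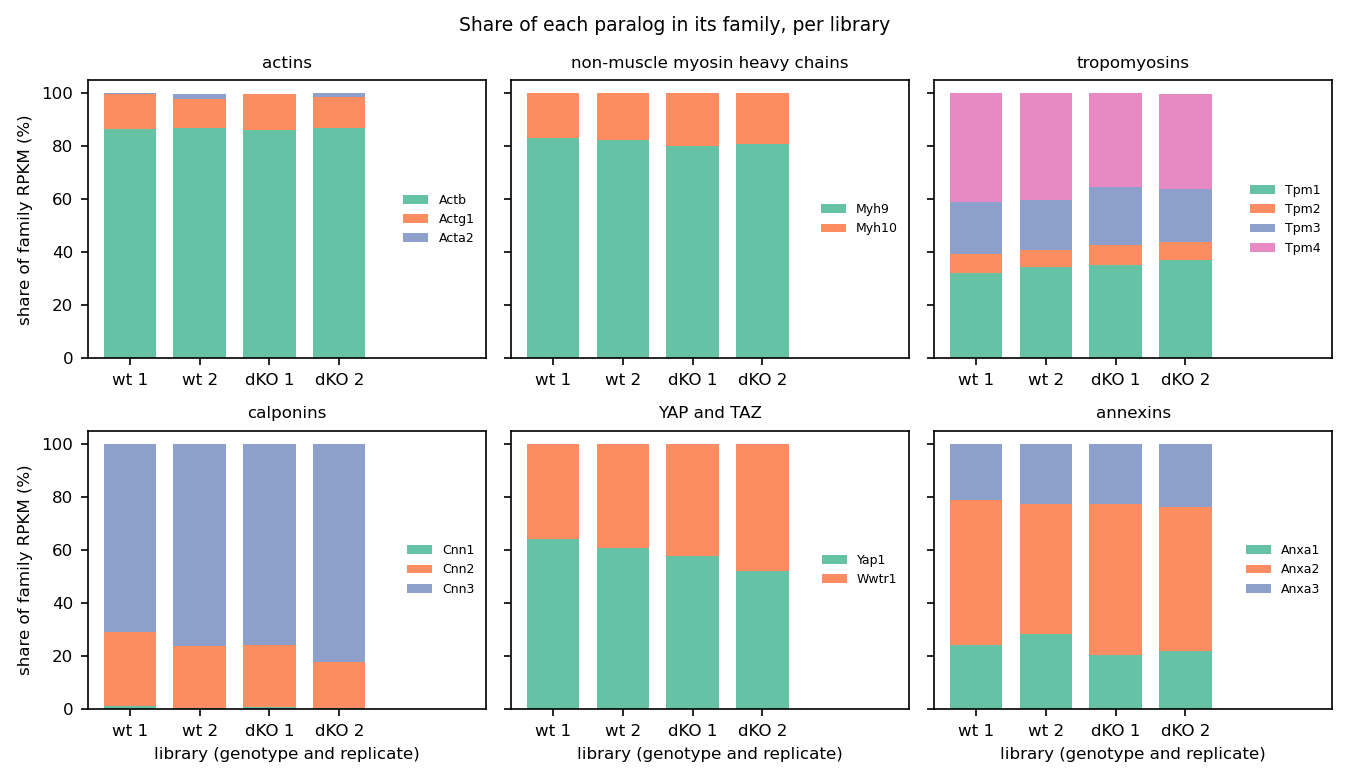
Share of each gene in its family's summed RPKM, in percent, for 6 families and each library (wt 1 is wt replicate 1, and so on). Tpm4 takes a smaller part of the tropomyosins and Wwtr1 a larger part of YAP and TAZ in both dKO libraries, while the actins are nearly alike apart from the thin Acta2 band in the second libraries.

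Promoter sequence was set beside these values, since SRF and TEAD are defined by their motifs. RefSeq windows (GRCm38.p6, 250 bases before to 50 after a gene start) were found for 34 of the 39 genes, 40 windows in all. Actb, Tagln, Ctgf, Tead1 and Anxa3 had none. A CArG box with nothing but A or T between its flanking bases was in 6 of the 40 windows (15.0%), against 1.63% of all 32851 windows, in Actg1, Myl9, Myl6, Cnn2, Vcl and Srf. The TEAD motif GGAATG, on either strand, was in 16 of the 40 windows (40.0%), against 14.7% of all. Vcl alone held both kinds, which did not overlap. A match is a description and not a site of binding, and many of these genes were chosen as known targets. CArG-like boxes with another base in the middle were not searched for and stay in lower case below. The 250 bases before the start are shown for 5 genes, 5′ to 3′ on the gene's strand, with CArG and TEAD motifs in capitals: Cnn2 and Vcl because they hold the same CArG letters, Srf because it holds 2 boxes, and Acta2 and Cyr61 as examples of a TEAD motif on either strand.
Cnn2 (chr10:79988350-79988599, plus strand): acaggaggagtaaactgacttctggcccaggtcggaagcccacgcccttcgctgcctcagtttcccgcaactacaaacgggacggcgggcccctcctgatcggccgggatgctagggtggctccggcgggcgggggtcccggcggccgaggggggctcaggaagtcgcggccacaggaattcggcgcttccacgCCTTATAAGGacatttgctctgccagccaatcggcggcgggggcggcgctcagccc
Vcl (chr14:20929148-20929397, plus strand): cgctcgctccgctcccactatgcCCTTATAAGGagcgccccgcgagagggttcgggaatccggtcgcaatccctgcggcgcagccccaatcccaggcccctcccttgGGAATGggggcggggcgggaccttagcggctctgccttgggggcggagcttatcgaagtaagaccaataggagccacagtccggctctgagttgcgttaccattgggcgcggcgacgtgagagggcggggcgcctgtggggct
Srf (chr17:46556163-46556412, minus strand): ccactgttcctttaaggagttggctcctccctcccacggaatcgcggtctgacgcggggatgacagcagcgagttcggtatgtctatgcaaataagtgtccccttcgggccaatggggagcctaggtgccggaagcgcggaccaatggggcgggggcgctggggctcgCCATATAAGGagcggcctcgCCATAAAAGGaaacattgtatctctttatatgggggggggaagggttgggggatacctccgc
Acta2 (chr19:34255374-34255623, minus strand): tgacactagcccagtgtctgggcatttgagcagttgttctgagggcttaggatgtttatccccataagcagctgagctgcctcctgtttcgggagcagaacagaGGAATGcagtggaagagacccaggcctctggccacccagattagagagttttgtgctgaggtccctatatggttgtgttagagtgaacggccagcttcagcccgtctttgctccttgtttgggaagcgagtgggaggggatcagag
Cyr61 (chr3:145649986-145650235, minus strand): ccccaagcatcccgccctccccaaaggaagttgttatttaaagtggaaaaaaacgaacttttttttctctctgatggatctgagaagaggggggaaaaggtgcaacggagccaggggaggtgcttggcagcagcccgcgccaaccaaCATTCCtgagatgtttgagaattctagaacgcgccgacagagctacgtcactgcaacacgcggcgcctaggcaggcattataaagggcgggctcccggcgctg
The identical box CCTTATAAGG began 56 bases before the start in Cnn2, with a log2 fold change of -0.45, and 227 bases before it in Vcl, with a log2 fold change of 0.11. The other genes with a box had 0.07 (Actg1), -0.48 (Myl9), -0.03 (Myl6) and 0.05 (Srf). Srf held its boxes 82 and 62 bases before the start. Acta2 and Cyr61 held 1 TEAD motif each, 146 and 103 bases before the start. The genes with a TEAD motif were Acta2, Actn4, Flna, Myh10, Tpm1, Tagln2, Vcl, Pfn1, Mkl2, Cyr61, Ankrd1, Amotl2, Yap1, Wwtr1 and Anxa1, and no pattern of expression was compared with it.

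Other genes of the same machinery were taken from 8 lists of nucleation, turnover, adhesion, Hippo, YAP target, SRF target, annexin and S100, and nuclear linker genes. Of 143 such genes 132 were tested, and none passed in edgeR (0.0855% of all tested genes did); 7 were higher and 11 lower at an unadjusted p under 0.05 (13.6%, against 5.57% of tested genes). Limma-voom called 0 of them, and DESeq2 called 3, Itga3, Nt5e and S100a6, all lower, both without the filter (0.403% of its genes called) and with it (0.684%). Their median log2 fold change was -0.05. In a list of further annexins and S100 genes, 10 of 11 tested were negative (50.3% of all tested genes were), with a median of -0.28. S100a6 had 451 and 502 wt counts and 315 and 321 dKO counts (log2 fold change -0.83, SE 0.15, edgeR adjusted p = 0.338), and S100a11, which binds Anxa1, had 626 and 805 against 568 and 535 (-0.61, SE 0.13, adjusted p = 0.517). S100a10, the partner of Anxa2, had -0.28 and overlapped between genotypes.

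Nucleation genes had a median log2 fold change of -0.01 over 23 genes. Arpc2, a subunit of the branching Arp2/3 complex, had -0.01, and Brk1, of the WAVE complex that activates it, 0.17. Diaph2, a formin, had 583 and 742 wt counts and 990 and 1235 dKO counts (0.51, edgeR adjusted p = 0.72), and Arpc3 had -0.33. Turnover and capping genes had a median of -0.08 over 17. Thymosin beta 4 (Tmsb4x), which holds monomers, had 185 RPKM in wt and 139 RPKM in dKO cells (-0.41, edgeR adjusted p = 0.786), Pfn2 0.65 and destrin (Dstn) 0.29.

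Integrin adhesion genes had a median of 0.05 over 22. Itga3, a laminin-binding integrin subunit, had 1066 and 1715 wt counts and 837 and 999 dKO counts (-0.82, SE 0.18, edgeR adjusted p = 0.533), while Itgb5 had 0.47, Itgb1 0.10 and Vasp 0.07. Hippo kinases and YAP partners had a median of -0.04 over 20. Amotl1, a scaffold related to Amotl2, had -0.59 (edgeR adjusted p = 0.68), Taok1, a kinase upstream of the Hippo kinases, 0.36, Nf2 -0.05 and Ajuba 0.17. The other YAP targets had a median of -0.25 over 13. Nt5e (CD73) had 257 and 119 wt counts and 25 and 69 dKO counts (-2.29, SE 0.63, adjusted p = 0.715), Axl -0.90, Myof -0.36 and Gadd45a 0.07. Myof too was high in both second libraries, with 1118 and 2844 wt counts and 1059 and 2507 dKO counts. The other SRF targets had a median of -0.12 over 19 and pointed both ways. At an unadjusted p under 0.05, 2 were higher and 3 lower (26.3% of the 19, against 5.57% of tested genes). The lower ones were Cald1 (caldesmon, -0.55), Fhl1 (-0.52) and Fhl2 (-0.94), and the higher ones the immediate early genes Fos (1.03) and Fosb (0.81). Fos had 121 and 160 wt counts and 242 and 434 dKO counts, without overlap (edgeR adjusted p = 0.72). Fos, Fosb and Fhl2 were picked out after their values were seen. Of the 2 with the highest RPKM, Ier2 had 0.18 and Mcl1 0.15. Of the 7 linker genes in the table none was at an unadjusted p under 0.05, with Sun1 at 0.11, Emd at -0.03, Tmem43 at -0.44 and Syne2 at 0.41.

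**Figure D5:**
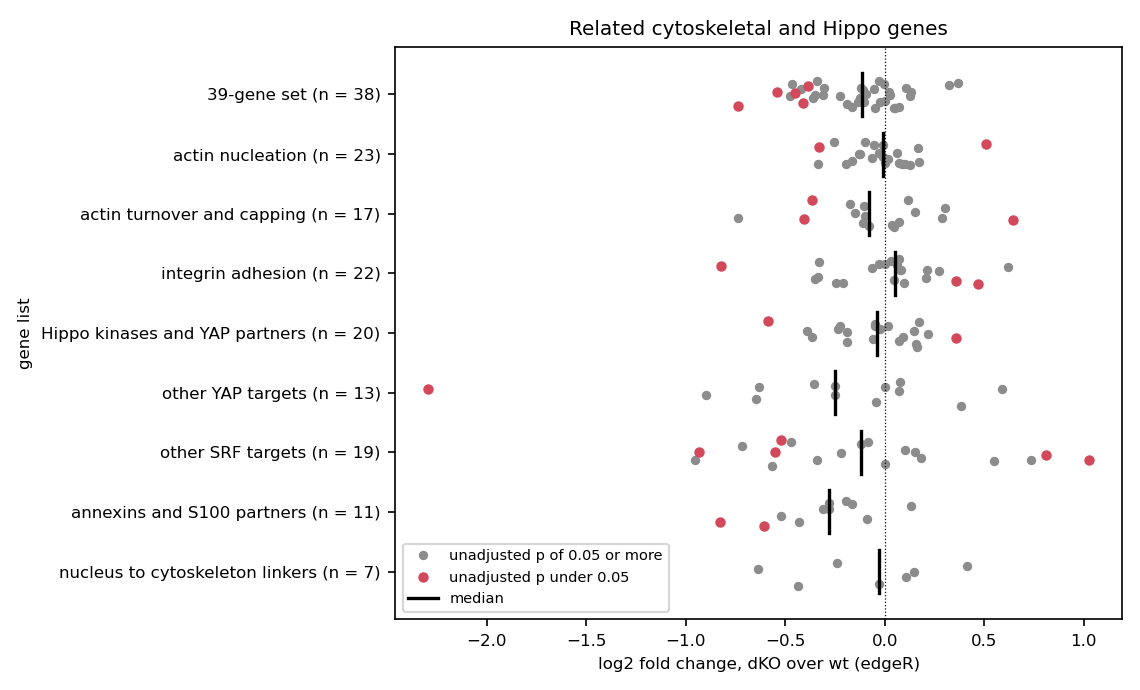
log2 fold change of dKO over wt for the 38 tested genes of the set and for 8 lists of related genes; each point is a gene, red points have an unadjusted p under 0.05 and black bars are medians. The medians lie between -0.28 (the list of annexins and S100 genes) and 0.05 (integrin adhesion), and the lowest point is Nt5e at -2.29.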

How the data were processed

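Total RNA (Trizol) of 2 wt and 2 dKO stem cell samples was sequenced from TruSeq libraries, per the labels. The deposited file is a single table of gene counts by Ensembl identifier, unnormalized whole numbers. For its making, the submitters' processing notes list TopHat2 2.0.6, TopHat and HTSeq without saying what each did. The sources used here give no genome build, annotation or strand setting. Gene positions are those of the table: chromosome 1 reaches 197054592 there and 195323493 in GENCODE M21, which was used only for symbols (32919 genes matched) and exon lengths. Total counts ran from 12899964 to 16697970 per library.

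Libraries were grouped by title. After filterByExpr and TMM scaling, edgeR 4.0.16 was applied (R 4.3.3; robust quasi-likelihood F test, genotype as the only term, Benjamini-Hochberg over 14027 genes). SEs come from the F statistic. RPKM is scaled CPM per kilobase of the union of exons. Alternatives used other filters, size factors, DESeq2 1.42.0, limma-voom (limma 3.58.1), a replicate block, each library left out and, for shares, the longest transcript length. The scripts were tested on simulated data. There, 2% of genes given a 1.5-fold change were called, and 38% of those given a 2-fold change. Differences of this size or smaller could therefore go uncalled. Of the 122 genes called there, 9 (7.4%) had been given no change. The simulated libraries were drawn independently, without a shared deviation of same-numbered libraries, so these rates may not carry over to the real ones.

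The genes and lists were chosen with earlier results of these data known; 1 further list of related genes is not reported here. All 39 genes are named; from each related list, genes that passed were named, or else the 2 with the smallest unadjusted p and the 2 with the highest RPKM. The floor for a count of 0 covers counting error only, while the intervals of log2 fold changes come from edgeR's fit and hold the spread between libraries.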

Additional observations from a re-analysis of the deposited data

How the results depend on the processing

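None of the 39 genes was called under any alternative run except the replicate block, and none of their log2 fold changes reversed with a call. Away from the block and the left-out libraries, the sign of an uncalled value changed for 3 of the 38 genes. With 1 library left out it changed for 21 of them. Such fits set the replicate numbers against each other unevenly, so the gap between replicates enters these values. With a replicate block 12 of the genes were called (2 higher, 10 lower: Ctgf and Wwtr1, and Acta2, Anxa1, Anxa2, Cnn2, Cyr61, Tagln, Tagln2, Tead2, Tln1 and Tpm4; 31.6% of 38, against 9.26% of tested genes), along with 29 related genes and 1299 genes in all; same-numbered libraries deviated together over 14027 genes (r = 0.677), which hints at pairing but is not in the design. The count of 12 called genes over the table was 80 with no filter, 92 by DESeq2 with no filter, 96 by DESeq2 on the filtered genes (chosen after the data were seen), 18 to 27 when any single library was dropped, and 5 in limma-voom. DESeq2 called 3 related genes with and without the filter, and the other alternatives except the block called 0. The median over the genes ran from -0.164 (without wt replicate 1) to -0.0635 (without wt replicate 2), and was -0.0653 without dKO replicate 1; the cause was not tested. Under all alternatives run, Lmnb1 and Lmnb2 were called lower. By longest transcript length, the Tpm4 share differed by -3.54 in place of -4.76 percentage points. Ankrd1 was limited by depth.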
